A study of Mus musculus with 31 samples.

Results

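The 10 genes described here encode transcriptional regulators of mitochondrial and lipid genes, and they were taken by name from the 39017 genes of the deposited count tables. They are the coactivator genes Ppargc1a and Ppargc1b, the lipid-sensing nuclear receptor genes Ppara, Ppard and Pparg, the estrogen-related receptor genes Esrra, Esrrb and Esrrg, Nrf1 (nuclear respiratory factor, a different gene from Nfe2l1) and Tfam. RNA was measured by sequencing in the gastrocnemius, the large calf muscle, of mice that were wild type or lacked MuRF1, a muscle ubiquitin ligase encoded by Trim63. Males and females either stayed on the chow given since weaning or were moved at 8 weeks of age to a diet with 45% fat from lard, and muscle was taken at 30 weeks. The sources used here name neither the strain nor the way the MuRF1 allele was made. The 30 libraries of the 8 groups were 4 each of wild-type male chow, knockout male chow, wild-type male high fat, wild-type female chow, knockout female chow and wild-type female high fat, and 3 each of knockout male high fat and knockout female high fat.

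In muscle, the coactivators of the PGC-1 family carry no DNA-binding domain of their own and are recruited to genes by receptors such as the PPARs and the estrogen-related receptors. The PPARs bind fatty acids and their derivatives as partners of retinoid X receptors and act on genes of fatty acid uptake and oxidation, while the estrogen-related receptors and nuclear respiratory factor act on nuclear genes of the respiratory chain. Tfam is carried into mitochondria, where it packages mitochondrial DNA and starts its transcription.

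Total counts ran from 9342028 to 14919379 per library, and the summed level of 15 skeletal muscle fibre markers from 177230 to 231389 CPM (counts scaled to a common library size, with TMM factors for the 10 regulators and without them for Trim63 and marker genes). In 19 records the animal number of the title is not the one of the data file, and each library was placed by the animal of its file. Trim63 then lay at 108.54 to 253.61 CPM in the 16 wild-type libraries and at 0.47 to 6.24 CPM in the 14 knockout libraries (log2 change -7.19 ± 0.26, standard error, adjusted p = 4.69e-15 by the quasi-likelihood test of edgeR). The Y-linked Ddx3y and the X-inactivation transcript Xist separated the sexes without overlap. The 3 libraries female wild type chow 3, female knockout chow 1 and female knockout chow 3 stood apart with keratinocyte marker sums of 62.3, 65.2 and 123 CPM, against 1.64 to 7.88 CPM in the others. Mitochondrial transcripts took 5.40% and 5.55% of reads in the third wild-type and the second knockout library of high-fat females, against 7.37% to 13.8% in the other grouped libraries. Within the wild types, male chow 3, female chow 1 and female high fat 4 held less Trim63 (108.54, 130.09 and 119.20 CPM) than the other 13 (183.30 CPM or more). Each of these 3 sets was left out in a fit of its own, the low-mitochondrial one chosen after the data were seen. The labels give each library its own animal, and p-values measure the spread between these animals.

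All 10 genes passed the filter on low counts, which kept 14024 genes. Per kilobase of exon, mean levels over the 30 libraries were 19.8 CPM for Esrra, 11.7 for Tfam, 4.52 for Esrrg, 4.31 for Ppargc1a, 3.55 for Ppard, 1.98 for Ppara, 1.70 for Ppargc1b, 1.59 for Esrrb, 1.37 for Pparg and 1.14 for Nrf1. Within each receptor family 1 gene was the most abundant, Esrra among the estrogen-related receptors and Ppard among the PPARs. The spread was unequal. The coefficient of variation over all libraries was 54.3% for Ppara, 48.6% for Pparg and 43.6% for Ppargc1a, and it was 9.84% for Nrf1 and 11.0% for Tfam. Pparg rested on 22 to 165 reads and Ppara on 18 to 236 reads per library, so their values carry more counting error than those of Esrra, with 639 to 1585 reads. The position of the 8 group means in order did not separate neighbouring groups for any of the 10 genes: each group overlapped the next in the range of its libraries.

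Promoter sequence is shown for 3 genes whose diet difference was not the same in the sexes. The stretches are those of the RefSeq promoter windows (build GRCm38.p6) that lie outside annotated exons, written 5′ to 3′ on the strand of the gene. They cover chr15:85735714-85735775 for Ppara on the plus strand, chr5:51567727-51567975 for Ppargc1a on the minus strand and chr19:6921814-6922058 for Esrra on the minus strand. The RefSeq start of Ppara lies inside the GENCODE gene, which begins at 85734983, and so does its stretch. Capitals mark the palindromic binding motif of nuclear respiratory factor in Ppara, its shorter form GCATGCGC in Esrra, and in Ppargc1a the letters CGTCA, which read TGACG, part of the cyclic AMP response element, on the other strand.
Ppara: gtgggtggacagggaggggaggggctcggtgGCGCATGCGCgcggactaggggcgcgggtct
Ppargc1a: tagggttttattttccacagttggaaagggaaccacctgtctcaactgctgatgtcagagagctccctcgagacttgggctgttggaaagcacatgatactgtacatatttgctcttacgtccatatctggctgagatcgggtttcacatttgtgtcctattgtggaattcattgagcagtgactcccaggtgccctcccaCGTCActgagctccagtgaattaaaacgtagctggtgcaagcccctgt
Esrra: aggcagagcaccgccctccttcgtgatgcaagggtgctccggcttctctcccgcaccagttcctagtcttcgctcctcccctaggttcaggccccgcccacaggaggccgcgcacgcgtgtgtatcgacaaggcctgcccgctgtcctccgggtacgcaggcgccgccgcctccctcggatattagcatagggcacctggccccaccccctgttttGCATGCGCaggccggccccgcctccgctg

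The motifs were searched on both strands in the 250 bases before each RefSeq start. The palindrome was in 0.782% of 32851 windows and, among the 16 windows of 9 of these genes, in that of Ppara, 31 to 22 bases before the start. The shorter GCATGCGC, which the palindrome contains, was in 2.26% of windows, and it lay 34 to 27 bases before the start of Esrra. TGACG was in 17.8% of all windows and in 3 of the 16, those of Ppargc1a (49 to 45 bases before the start), Ppara and Esrrb, a share near that of all windows. The GABP motif ACCGGAAGT, present in 0.804% of windows, lay 48 to 40 bases before the start of Tfam. The MEF2 motif, present in 0.14% of windows, was in a window of Esrrg, where it overlaps the letters TATAAA of the other strand. The estrogen-related receptor element TCAAGGTCA (0.387% of windows) and the PPAR direct repeat, AGGTCA followed by any 1 base and AGGTCA again (0.0335%), had no exact match in the 16 windows. A match describes the letters of the window and was not tied to binding here.

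Ppara, the PPAR of fatty acid oxidation, showed diet differences of opposite sign in males and females. The gene (ENSMUSG00000022383) lies on chromosome 15 from 85734983 to 85802819, plus strand (mm10, GENCODE annotation). In males on chow it measured 5.01, 3.03, 6.01 and 1.92 CPM in wild type and 3.24, 4.69, 5.90 and 2.85 CPM in knockout. In males on high fat it measured 13.1, 8.30, 6.69 and 6.75 CPM in wild type and 9.70, 14.0 and 8.79 CPM in knockout. The 7 male high-fat libraries lay above the 8 male chow libraries with no overlap. In females on chow it measured 10.0, 11.1, 11.0 and 9.38 CPM in wild type and 13.2, 17.7, 13.7 and 8.84 CPM in knockout. In females on high fat it measured 6.45, 7.63, 4.15 and 1.99 CPM in wild type and 6.14, 1.66 and 4.58 CPM in knockout. The order was turned round: the 7 female high-fat libraries lay below the 8 female chow libraries, again with no overlap. The female library with the least Ppara, knockout high fat 2, is 1 of the 2 low in mitochondrial reads.

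Some macrophage, matrix and tendon markers moved the same way as Ppara with diet. Of 10 macrophage markers 7 rose and 0 fell on high fat in males, and 0 rose and 6 fell in females. Of 11 fibroblast and matrix markers 2 rose and 0 fell in males, and 0 rose and 5 fell in females. Of 6 tendon markers 2 rose and 0 fell in males, and 0 rose and 5 fell in females. Of all genes, 5.23% rose and 2.74% fell in males, and 21.4% rose and 21.1% fell in females. For the difference between the sexes 8, 7 and 5 of these markers were lower and 0 higher, where 23.6% of all genes were lower and 21.6% higher. The part of these cells in the Ppara difference was not tested. With the matrix covariate given further on, Ppara kept its call for the difference between the sexes. In that fit it lost its calls for diet in males and for sex on chow.

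**Figure D1:**
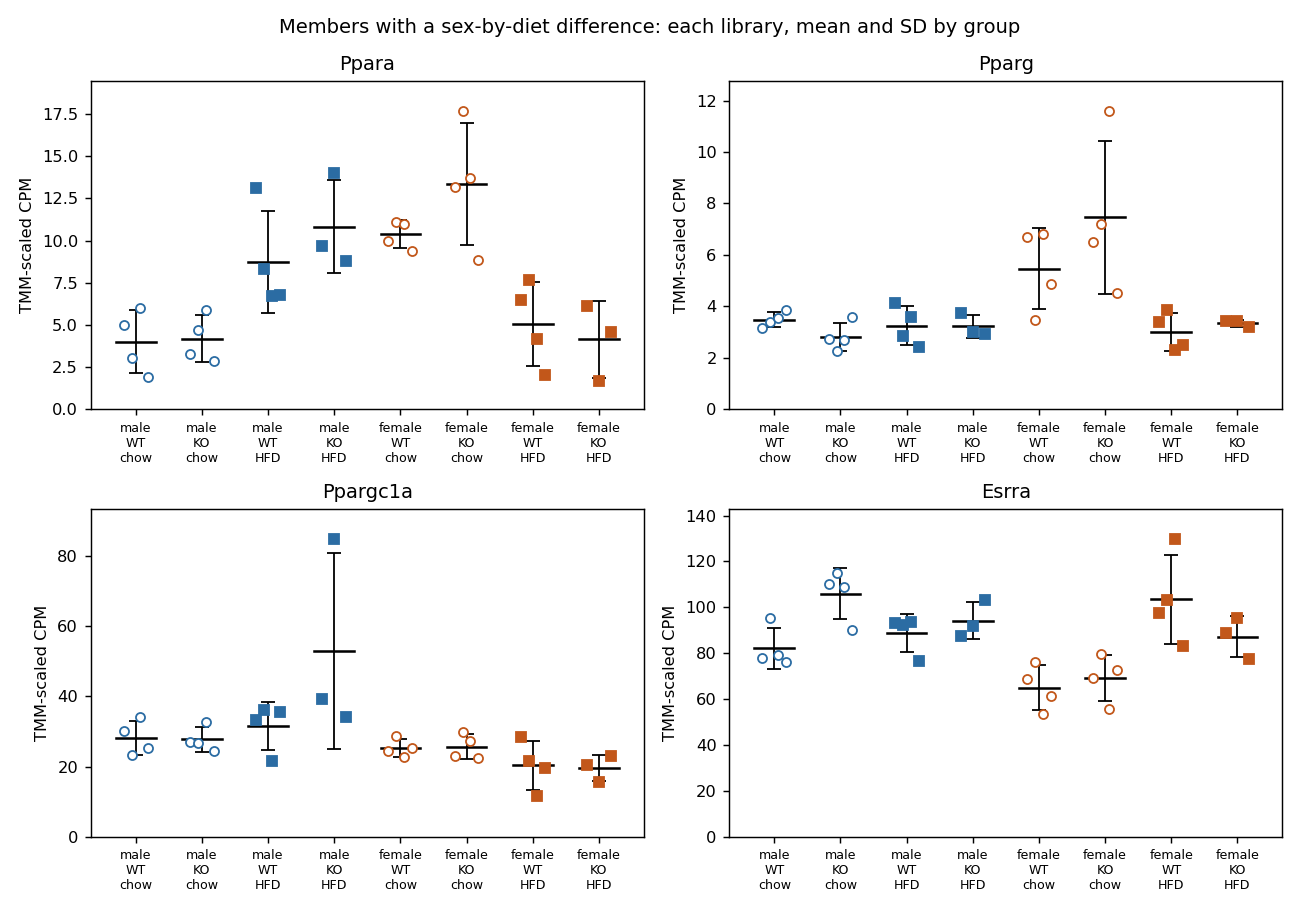
TMM-scaled CPM of Ppara, Pparg, Ppargc1a and Esrra in each of the 30 libraries, by group. Open circles are chow and filled squares high fat, blue is male and orange female, bars are the mean and SD over 3 or 4 libraries. Ppara is higher on high fat in males and lower in females, and 1 male knockout high-fat library holds 85.0 CPM of Ppargc1a.

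Averaged over the genotypes, Ppara rose on high fat in males by 1.26 ± 0.26 on the log2 scale (edgeR adjusted p = 0.00618) and fell by 1.34 ± 0.26 in females (-1.34, adjusted p = 0.000328). The difference between these diet effects was -2.60 ± 0.37 with a 95% interval of -3.36 to -1.83 (adjusted p = 1.10e-05), and it passed the threshold in each alternative fit and with any 1 library left out. Among single strata, the rise was 1.38 ± 0.38 in knockout males (adjusted p = 0.0358), and wild-type males had 1.13 ± 0.36, which missed the threshold (adjusted p = 0.205). Ppara fell by 1.00 ± 0.35 in wild-type females (adjusted p = 0.0365) and by 1.68 ± 0.39 in knockout females (adjusted p = 0.00685). The unadjusted edgeR p was 0.00445 in wild-type males and 0.00796 in wild-type females, where 0.349% and 25.4% of all genes were called. The adjustment runs within each contrast, so the missed and the passed threshold do not rank these 2 changes. The stratum calls rest on few animals. The call in wild-type females was lost without any 1 of their 4 chow libraries or without high-fat library 3 or 4 (adjusted p up to 0.107). It was also lost in 9 of 16 alternative fits, among them those unfiltered, with the GC correction, with either covariate and without each doubted set of libraries. Values went down to -0.57 (adjusted p = 0.321) when libraries were grouped by their own titles. That grouping puts male knockout high fat 3 (Ddx3y 34.05 CPM, Trim63 1.80 CPM) among wild-type females on chow. It also puts female knockout chow 4 (Trim63 0.87 CPM) among wild-type females on high fat, so it mixes sexes and genotypes. The call in knockout females was lost without high-fat library 2 (-1.31, adjusted p = 0.0862). It was also lost without the 3 female chow libraries high in keratinocyte markers (-1.67, adjusted p = 0.0780) or the 2 low in mitochondrial reads (-1.31, adjusted p = 0.0765). In knockout males it was lost without any 1 of their 4 chow libraries or without high-fat library 1 or 2 (adjusted p up to 0.144), and in 4 alternative fits: unfiltered, without the libraries high in keratinocyte markers and with either covariate.

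Pparg, the PPAR of fat cells, differed by diet in females. The gene (ENSMUSG00000000440) lies on chromosome 6 from 115360951 to 115490399, plus strand. Wild-type females held 6.70, 3.48, 6.79 and 4.88 CPM on chow and 3.37, 3.85, 2.31 and 2.48 CPM on high fat. Knockout females held 6.51, 7.21, 11.6 and 4.52 CPM on chow and 3.41, 3.41 and 3.17 CPM on high fat. Over both genotypes 7 of the 8 female chow libraries lay above the 7 high-fat ones. The 15 male libraries lay between 2.24 and 4.14 CPM on either diet, and high-fat females between 2.31 and 3.85 CPM. Pparg fell by 1.00 ± 0.18 on the log2 scale in females (adjusted p = 7.78e-05), measured 0.04 ± 0.19 in males (95% interval -0.34 to 0.42), and the effects differed by -1.05 ± 0.26 (adjusted p = 0.00159). The stratum values were -0.84 ± 0.24 in wild-type females (adjusted p = 0.0112) and -1.16 ± 0.26 in knockout females (adjusted p = 0.00453). The first was lost without chow library 3 or high-fat library 3 (adjusted p = 0.0506 and 0.0534) and without the 3 libraries low in Trim63 (-0.65, adjusted p = 0.0937), the second without the 3 female chow libraries high in keratinocyte markers (-0.81, adjusted p = 0.0993).

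Adipocyte markers moved with Pparg in part. Of 10 adipocyte markers tested, 1 rose and 6 fell on high fat in females, where 21.4% of all genes rose and 21.1% fell. On chow 7 were higher and 1 lower in females than in males, where 26.1% of all genes were higher and 21.8% lower. The summed level of the adipocyte markers was 326 to 605 CPM in wild-type and 494 to 865 CPM in knockout females on chow. It was 353 to 533 and 389 to 469 CPM in those on high fat, and 263 to 479 CPM in males. The median sum was 487 CPM on chow and 508 CPM on high fat in wild-type females, and 606 and 391 CPM in knockout females. Adipoq, which encodes the fat cell hormone adiponectin and was picked as a defining marker outside the naming rule, ran from 20.1 to 64.3 CPM in females on chow. It ran from 7.57 to 27.2 CPM in females on high fat and from 3.12 to 26.7 CPM in males. Lep, another adipocyte marker picked outside the rule, overlapped between the sexes on chow (4.31 to 18.8 CPM in females, 4.43 to 20.6 CPM in males). The library with the highest Pparg, female knockout chow 3, also had the highest adipocyte sum, 865 CPM, and the highest keratinocyte sum. The part of fat cell content in the Pparg difference was not tested, and in bulk tissue fewer cells of a type and less RNA per cell cannot be told apart.

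Ppard, the PPAR most abundant in these muscles, encodes a receptor known for oxidative metabolism in muscle fibres. It had a small rise in females on high fat (ENSMUSG00000002250, chromosome 17, 28232700 to 28301474, plus strand). Chow females ran from 22.2 to 27.6 CPM (median 24.5) and high-fat females from 25.8 to 36.5 CPM (median 28.6), so the groups overlapped. The change was 0.24 ± 0.07 (adjusted p = 0.00796) in females and 0.04 ± 0.07 in males (interval -0.11 to 0.19). The female change missed the threshold without the 3 libraries high in keratinocyte markers (0.21, adjusted p = 0.0743) and with a correction for GC content (0.16, adjusted p = 0.0505). The difference between the sexes missed it too (0.21 ± 0.10, adjusted p = 0.103). In wild-type females alone Ppard rose by 0.34 ± 0.10 (adjusted p = 0.0130), a call lost without high-fat library 3 (0.24, adjusted p = 0.0859), which is low in mitochondrial reads.

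Ppargc1a, the exercise- and cold-responsive coactivator gene, had a wide spread on high fat. The gene (ENSMUSG00000029167) lies on chromosome 5 from 51454250 to 51567726, minus strand. Males on chow held 30.0, 23.3, 34.0 and 25.3 CPM in wild type and 27.0, 26.8, 32.7 and 24.4 CPM in knockout. Males on high fat held 33.2, 36.2, 21.5 and 35.4 CPM in wild type and 39.3, 85.0 and 34.2 CPM in knockout. The value of 85.0 CPM, in male knockout high fat 2, is the highest of the 30 libraries. In knockout males the high-fat libraries lay above the chow libraries also without it (34.2 and 39.3 against 24.4 to 32.7 CPM), and in wild-type males the diets overlapped. Females on chow held 24.5, 28.6, 22.6 and 25.4 CPM in wild type and 22.9, 29.7, 27.4 and 22.3 CPM in knockout. Females on high fat held 28.5, 21.7, 11.6 and 19.5 CPM in wild type and 20.3, 15.5 and 22.9 CPM in knockout. Of the 7 high-fat females, 5 lay below the lowest chow female, and the other 2 lay within the chow range. The 2 lowest, 11.6 and 15.5 CPM, are the libraries low in mitochondrial reads, which also hold the lowest Esrrg of the 30 (13.7 and 14.5 CPM).

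The diet effect on Ppargc1a was 0.55 ± 0.17 in males (adjusted p = 0.0496) and -0.34 ± 0.18 in females, which missed the threshold (adjusted p = 0.123) and was -0.18 without those 2 libraries (adjusted p = 0.475). The male call was borderline: it was lost in 24 of the 30 fits that left out 1 library, and without male knockout high fat 2 the value was 0.28 (adjusted p = 0.242). In knockout males alone the rise was 0.93 ± 0.25 (adjusted p = 0.0318), against 0.40 (adjusted p = 0.304) without that library, and the call was also lost without chow library 1, 2 or 3 or high-fat library 1. The replicate block took away both calls, with 0.51 (adjusted p = 0.0798) in males together and 0.87 (adjusted p = 0.0569) in knockout males. The difference between the sexes was -0.89 ± 0.25 (adjusted p = 0.00542) and kept its call without that library, at -0.62 (adjusted p = 0.0139), and without the 2 female libraries low in mitochondrial reads, at -0.71 (adjusted p = 0.0234); with the GC correction it was -0.57 (adjusted p = 0.0381). On high fat, Ppargc1a was lower in females than in males by -1.03 ± 0.18 (adjusted p = 0.000179), or by -0.77 (adjusted p = 0.000463) without it. The related coactivator gene Ppargc1b (ENSMUSG00000033871, chromosome 18, 61298136 to 61400431, minus strand) had no diet call, with -0.01 ± 0.14 in males and -0.32 ± 0.14 in females (adjusted p = 0.0623).

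**Figure D2:**
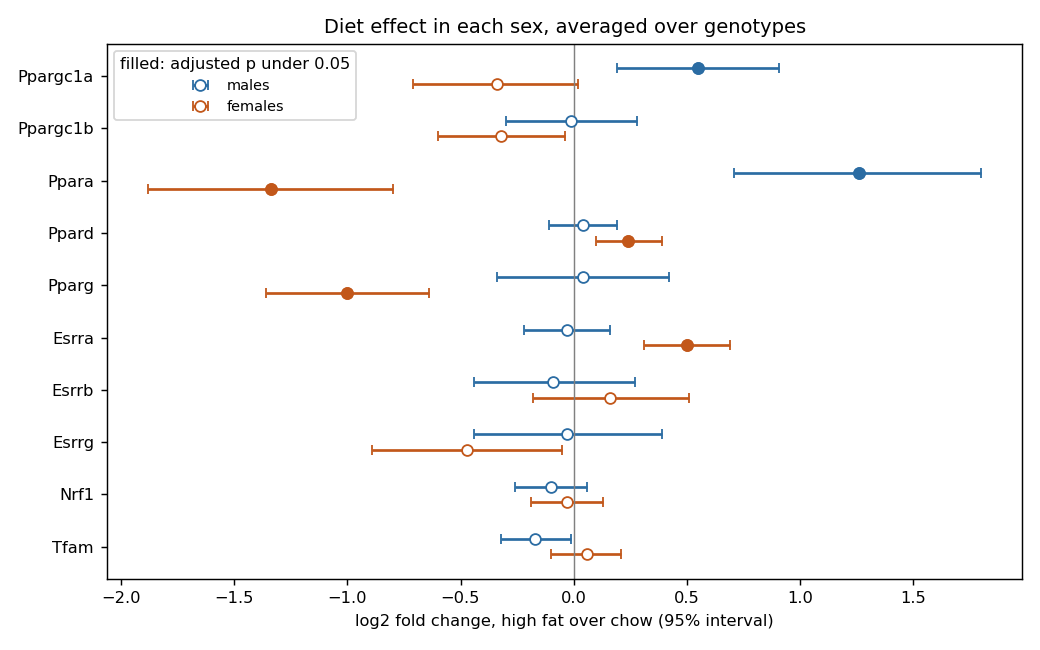
Log2 fold change of high fat over chow for the 10 genes in males (blue) and females (orange), averaged over genotypes, with 95% intervals from edgeR. Filled points have an adjusted p under 0.05. Ppara lies at 1.26 in males and -1.34 in females. The intervals of Nrf1 and Tfam lie between -0.32 and 0.21, and that of Tfam in males ends below 0, at -0.01.

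Esrra, which encodes the estrogen-related receptor ERR alpha, rose on high fat in females. The gene (ENSMUSG00000024955) lies on chromosome 19 from 6910977 to 6921813, minus strand, and its exons overlap Mir6990 on the same strand and Trmt112 on the other; reads in those stretches cannot be assigned with certainty. Wild-type females held 68.6, 76.3, 53.5 and 61.2 CPM on chow and 97.6, 103, 130 and 83.1 CPM on high fat, with no overlap. Knockout females held 69.0, 79.8, 55.7 and 72.7 CPM on chow and 89.0, 95.2 and 77.4 CPM on high fat, where 1 chow library exceeded 1 high-fat library. The 130 CPM, the highest of the 30 libraries, and the 95.2 CPM are from the 2 libraries low in mitochondrial reads. The 83.1 CPM is from 1 of the 3 wild-type libraries low in Trim63. Wild-type males held 77.7, 95.4, 79.4 and 76.2 CPM on chow and 93.1, 92.3, 93.8 and 76.4 CPM on high fat. Knockout males held 110, 115, 109 and 90.0 CPM on chow and 87.6, 91.9 and 103 CPM on high fat, and the diets overlapped in males of either genotype. The change in females was 0.50 ± 0.09 (adjusted p = 0.000134), that in males -0.03 ± 0.09 (interval -0.22 to 0.16), and the difference 0.53 ± 0.13 (adjusted p = 0.00179). In wild-type females it was 0.67 ± 0.13 (adjusted p = 0.000828), and in knockout females 0.33 ± 0.14, which missed the threshold (adjusted p = 0.0813).

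The other estrogen-related receptors had no diet call in the edgeR fit to all 30 libraries. Esrrb (ENSMUSG00000021255, chromosome 12, 86361117 to 86521628, plus strand), known for its role in embryonic stem cells, measured -0.09 ± 0.17 in males and 0.16 ± 0.17 in females. Esrrg (ENSMUSG00000026610, chromosome 1, 187608791 to 188214885, plus strand), known from oxidative muscle and heart, measured -0.03 ± 0.20 in males and -0.47 ± 0.20 in females (adjusted p = 0.0624). DESeq2 called that female change (-0.48, adjusted p = 0.0300), as did the replicate block (-0.49, adjusted p = 0.0168) and the slow fibre covariate (-0.52, adjusted p = 0.0456), and without the 2 libraries low in mitochondrial reads it was -0.25 (adjusted p = 0.346). In wild-type females Esrrb was called without the 3 libraries low in Trim63 (0.77, adjusted p = 0.0192). Nrf1 (ENSMUSG00000058440, chromosome 6, 30047988 to 30153458, plus strand) measured -0.10 ± 0.08 in males and -0.03 ± 0.08 in females. Tfam (ENSMUSG00000003923, chromosome 10, 71225464 to 71238280, minus strand) measured -0.17 ± 0.08 in males and 0.06 ± 0.08 in females. The male value had an interval of -0.32 to -0.01 and missed the threshold (adjusted p = 0.163). It was called with the GC correction and without the libraries low in mitochondrial reads. The 95% intervals of Nrf1 and Tfam ran between -0.32 and 0.21 for either sex, so a change of 1.5-fold lies outside them.

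**Figure D3:**
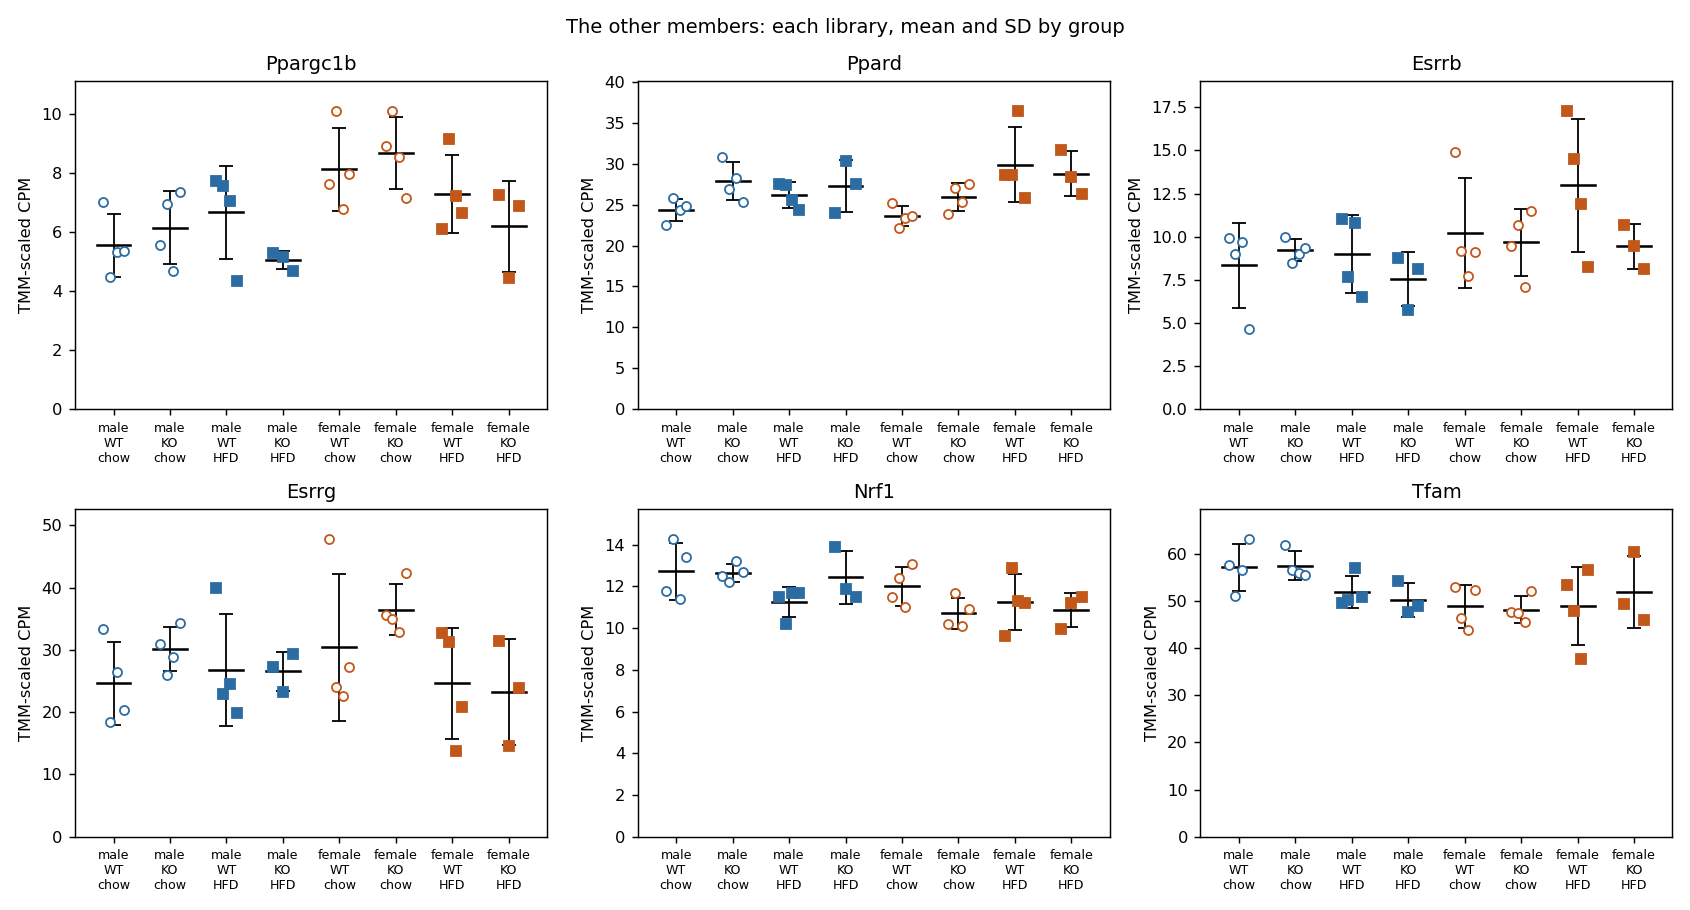
TMM-scaled CPM of Ppargc1b, Ppard, Esrrb, Esrrg, Nrf1 and Tfam in each of the 30 libraries, by group, with the mean and SD over 3 or 4 libraries. Open circles are chow and filled squares high fat, blue is male and orange female. Nrf1 stays between 9.61 and 14.3 CPM, and Ppard reaches 36.5 CPM in a female wild-type high-fat library.

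These counts are read against the share of all genes called. For diet in females 4 of the 10 genes were called, 2 higher and 2 lower, where 42.5% of all genes were (21.4% higher and 21.1% lower). For diet in males 2 of 10 were called, both higher, where 7.97% of all genes were (5.23% higher and 2.74% lower). For the difference in diet effect between the sexes 4 of 10 were called, 1 more positive in females and 3 more negative, where 45.2% of all genes were (21.6% and 23.6%). In wild-type females 4 of 10 were called (25.4% of all genes), in knockout females 2 of 10 (19.2%) and in knockout males 2 of 10 (5.83%). The female and sex-by-diet shares are thus near those of all genes and say nothing particular about these 10 regulators, and the male count rests on Ppara and the borderline Ppargc1a. The median log2 change of the 10 was -0.02 in males and -0.17 in females, beside 0.03 and -0.00 for all genes. In wild-type males 0 of 10 were called with edgeR (0.349% of all genes) and 0 with DESeq2, with 1 at an unadjusted p under 0.05. For diet averaged over all strata edgeR called 0 of 10 (0.827% of all genes) and DESeq2 2, with 3 at an unadjusted p under 0.05.

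MuRF1 loss was the question of the study design, and the edgeR fit to all 30 libraries called no regulator for it, while DESeq2 called Esrra in chow males. Averaged over sex and diet, edgeR called 0 of 10 genes (4.39% of all genes, 1.55% higher and 2.83% lower), DESeq2 called 0, and 0 had an unadjusted p under 0.05. The average log2 changes ran from -0.17 ± 0.12 for Esrrb to 0.17 ± 0.12 for Ppargc1a, with a median of 0.07 beside -0.01 for all genes. The 95% intervals bounded the average change to between -0.13 and 0.09 for Nrf1, -0.10 and 0.12 for Tfam, -0.02 and 0.19 for Ppard and -0.06 and 0.21 for Esrra. They were wider for Ppara, from -0.28 to 0.49. In the single strata edgeR called 0 of 10 in chow males (6.95% of all genes), high-fat males (0.264%), chow females (0.0927%) and high-fat females (0.0713%), with 1, 1, 0 and 0 genes at an unadjusted p under 0.05.

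By unadjusted p, the 2 genotype differences nearest to a call were those of Ppargc1a and Esrra, both in males. Esrra measured 82.2 ± 8.90 CPM (SD, n = 4) in wild-type and 106 ± 10.9 CPM (SD, n = 4) in knockout males on chow, with 1 knockout library below the highest wild-type library. The change was 0.36 ± 0.13 and missed the threshold in edgeR (adjusted p = 0.0750), while DESeq2 called it (0.38, adjusted p = 0.0438), as did edgeR without male knockout chow 4 (0.45, adjusted p = 0.0297) or female wild type high fat 3 (0.38, adjusted p = 0.0445). The replicate block (0.36, adjusted p = 0.0483) and the GC correction (0.39, adjusted p = 0.0415) gave a call as well. In the same comparison 11 of 11 fibroblast and matrix markers fell, where 6.95% of all genes were called. Their sums were 778 to 1428 CPM in wild-type and 229 to 843 CPM in knockout males. With their mean level as a covariate the Esrra value was 0.25 (adjusted p = 0.838), and the number of all genes called fell to 5 from 974. The covariate follows genotype in chow males, and the part of the matrix cells cannot be told apart from genotype there. Ppargc1a measured 31.6 ± 6.87 CPM (SD, n = 4) in wild-type and 52.8 ± 27.9 CPM (SD, n = 3) in knockout males on high fat, a change of 0.75 ± 0.25 (adjusted p = 0.264) that was 0.23 (adjusted p = 0.935) without male knockout high fat 2. The genotype effect differed between diets for 0 of 10 genes (0.107% of all genes) and between sexes for 0 of 10 (0.0285%) with edgeR and with DESeq2, with 2 and 1 genes at an unadjusted p under 0.05.

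**Figure D4:**
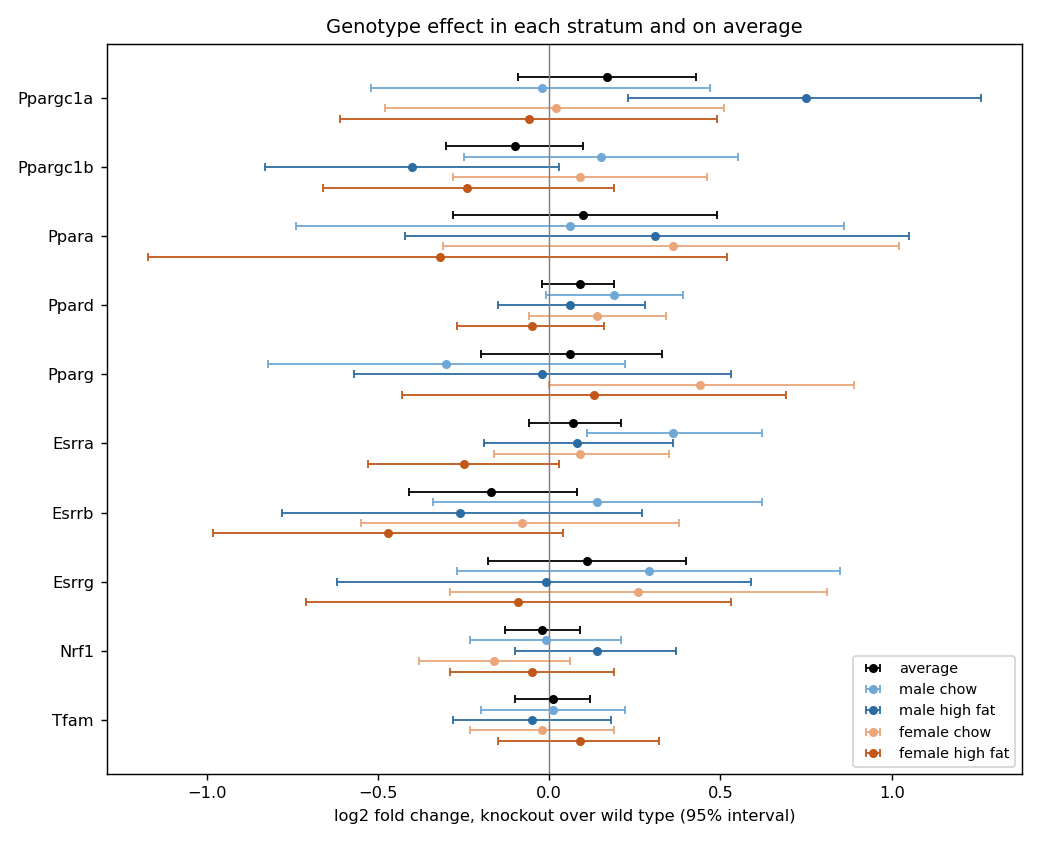
Log2 fold change of MuRF1 knockout over wild type for the 10 genes, on average (black) and in each of the 4 strata, with 95% intervals from edgeR. No point has an adjusted p under 0.05, and the value farthest from 0 is that of Ppargc1a in males on high fat, 0.75.

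The sexes differed on chow in 5 of the 10 regulators, 3 higher and 2 lower in females, where 47.9% of all genes were called (26.1% higher and 21.8% lower). Ppara was higher in females by 1.53 ± 0.25 (adjusted p = 2.83e-05), with 8.84 to 17.7 CPM in the 8 females and 1.92 to 6.01 CPM in the 8 males and no overlap. Pparg was higher by 1.03 ± 0.17 (adjusted p = 1.36e-05) and Ppargc1b by 0.52 ± 0.13 (adjusted p = 0.00193). Ppargc1b ran from 6.79 to 10.1 CPM in chow females and from 4.48 to 7.36 CPM in chow males, so these overlapped slightly. Esrra was lower in females by -0.48 ± 0.09 (adjusted p = 8.57e-05), with 53.5 to 79.8 CPM against 76.2 to 115 CPM. Tfam was lower by -0.24 ± 0.07 (adjusted p = 0.00831), with 43.8 to 53.1 CPM against 51.2 to 63.3 CPM, and missed the threshold without the 3 libraries high in keratinocyte markers (-0.20, adjusted p = 0.0816).

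On high fat the sexes differed in 2 of 10, both lower in females, where 29.3% of all genes were called (14.4% higher and 14.9% lower). Ppara now measured -1.07 ± 0.27 (adjusted p = 0.00473), with 1.66 to 7.63 CPM in 7 females and 6.69 to 14.0 CPM in 7 males, and Ppargc1a is given above. Pparg, which differed on chow, measured -0.02 ± 0.19 here (interval -0.41 to 0.37). Averaged over diets and genotypes 4 of 10 were called, where 30.8% of all genes were (17.4% higher and 13.4% lower): Ppargc1a at -0.58 ± 0.13 (adjusted p = 0.000817), Ppargc1b at 0.37 ± 0.10 (adjusted p = 0.00478), Pparg at 0.50 ± 0.13 (adjusted p = 0.00304) and Esrra at -0.21 ± 0.07 (adjusted p = 0.0144). Ppara averaged 0.23 ± 0.19, its chow and high-fat differences being of opposite sign. The Esrra average missed the threshold when the 4 libraries whose own title gives another group were left out (-0.17, adjusted p = 0.0661) and without those high in keratinocyte markers (-0.16, adjusted p = 0.0830).

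Markers of other cells moved with sex on chow. All 11 fibroblast and matrix markers tested, 10 of 10 macrophage markers, 6 of 6 Schwann cell markers, 5 of 6 tendon markers and 4 of 9 endothelial markers were higher in chow females than in chow males, and 0 were lower. Of all genes, 26.1% were higher and 21.8% lower there. Fibroblast and matrix sums were 1680 to 2893 CPM in chow females and 229 to 1428 CPM in chow males, without overlap, and 666 to 1680 CPM in females and 768 to 1674 CPM in males on high fat. With the mean level of these matrix markers as a covariate, 0 of the 10 regulators were called for sex on chow or on average. In the same fit 0 were called for diet in males, 4 for diet in females and 2 for sex on high fat. Of all genes, that fit called 436 for sex on chow, 949 for sex on average and 182 for diet in males. It called 4534 for diet in females and 4857 for sex on high fat. In that fit only Ppara kept its call for the difference in diet effect between the sexes (-2.17, adjusted p = 0.00371); Ppargc1a had -0.88 (adjusted p = 0.0689), Pparg -0.62 (adjusted p = 0.149) and Esrra 0.44 (adjusted p = 0.0517). The number of all genes called for that difference fell to 2702 from 6340 in the same fit. The covariate follows sex on chow closely, and the part of the matrix cells in these differences cannot be told apart from sex there.

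Slow fibre markers were also higher in females, 6 of 11 on chow and 11 of 11 on high fat, beside 26.1% and 14.4% of all genes. The sums of these markers were 2224 to 3901 CPM in chow females, 1195 to 2607 CPM in chow males, 2351 to 4606 CPM in high-fat females and 972 to 2459 CPM in high-fat males. With their level as a covariate the 4 calls for the difference in diet effect between the sexes were kept, and those for Ppargc1b and Pparg in the sex average were lost (0.38 with adjusted p = 0.120 and 0.47 with adjusted p = 0.138). In that fit 5449 of all genes were called for the first comparison and 1753 for the sex average, from 6340 and 4317.

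The known target genes of these regulators were counted from lists of pathway genes. Of 32 PPAR targets in fatty acid use, 1 rose and 13 fell on high fat in males (median log2 change -0.29, beside 0.03 for all genes), and 18 rose and 0 fell in females (0.30, beside -0.00). That is 43.8% of the list in males and 56.2% in females, where 7.97% and 42.5% of all genes were called. In males Acot2, a mitochondrial acyl-CoA thioesterase, fell by 1.36 ± 0.16 on the log2 scale (adjusted p = 6.53e-06), Angptl4, the secreted lipase inhibitor, by 1.92 ± 0.30 (adjusted p = 0.000556) and Pdk4, the kinase that restrains pyruvate oxidation, by 1.76 ± 0.29 (adjusted p = 0.00119). In females Ech1, an auxiliary enzyme of fatty acid oxidation, rose by 0.65 ± 0.12 (adjusted p = 0.000118), Pdk4 by 1.52 ± 0.28 (adjusted p = 0.000235) and Acot2 by 0.80 ± 0.16 (adjusted p = 0.000312). The Ppara transcript thus went up in males, where 13 targets went down, and down in females, where 18 went up. In wild-type females 16 targets rose and 0 fell, and in knockout females 3 rose and 1 fell, 12.5% of the list beside 19.2% of all genes. The estimated fall of Ppara was larger in knockout females, but a difference between the genotypes within females was not tested. Averaged over the sexes, the diet effect differed by genotype for 0 of the 32 targets. For Ppara that difference was -0.22 ± 0.37 (edgeR adjusted p = 0.907). Without the 2 libraries low in mitochondrial reads 13 rose in females and 0 in knockout females, where 3804 and 495 of all genes were called. Without those high in keratinocyte markers 11 and 0 rose, where 3833 and 106 of all genes were called. The fit to all 30 libraries called 5964 and 2688 of all genes there. For the difference between the sexes 20 of the 32 targets were called higher and 1 lower (65.6%, beside 45.2% of all genes), and for MuRF1 loss on average 0 were called.

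Of 34 targets of the estrogen-related receptors, nuclear respiratory factor and PGC-1 in respiration, 0 rose and 1 fell in males (median -0.10), and 25 rose and 0 fell in females (median 0.30), 2.94% and 73.5% of the list beside 7.97% and 42.5% of all genes. The fit to all 30 libraries called 5964 of all genes in females. Without the libraries low in mitochondrial reads it was 3804, and 20 of these targets rose. Without those high in keratinocyte markers it was 3833, and 16 of the targets rose. The 3 with the smallest p in females were Mdh2, malate dehydrogenase of mitochondria, with 0.55 ± 0.08 (adjusted p = 1.01e-05), and the cytochrome oxidase subunit genes Cox5b, with 0.64 ± 0.10 (adjusted p = 3.58e-05), and Cox4i1, with 0.63 ± 0.10 (adjusted p = 4.11e-05). On chow, 27 of the 34 were lower in females than in males and 0 higher (79.4%, beside 47.9% of all genes), and Esrra was lower there too. Without the libraries high in keratinocyte markers 19 of the 34 were lower, where the number of all genes called was 4512, from 6715. In knockout against wild type on average 2 were lower (5.88%, beside 4.39% of all genes), Mfn2 of mitochondrial fusion at -0.26 ± 0.05 (adjusted p = 0.00364) and Fndc5, the irisin precursor gene, at -0.44 ± 0.09 (adjusted p = 0.00433). Both lie on chromosome 4, as Trim63 does, 13.6 and 5.18 Mb from its start, and the loss of MuRF1 and alleles carried along with the knockout cannot be told apart here. Skeletal muscle fibre markers also changed on high fat in females, with 9 of 14 higher and 2 lower. In wild-type females 2 of the 14 were higher and 2 lower, and in knockout females 9 were higher and 1 lower. The respiration targets had 18 and 11 of 34 higher in these 2 strata and 0 lower, where 25.4% and 19.2% of all genes were called. Averaged over the sexes, the diet effect differed by genotype for 0 of these 34 targets and 0 of the 14 fibre markers.

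**Figure D5:**
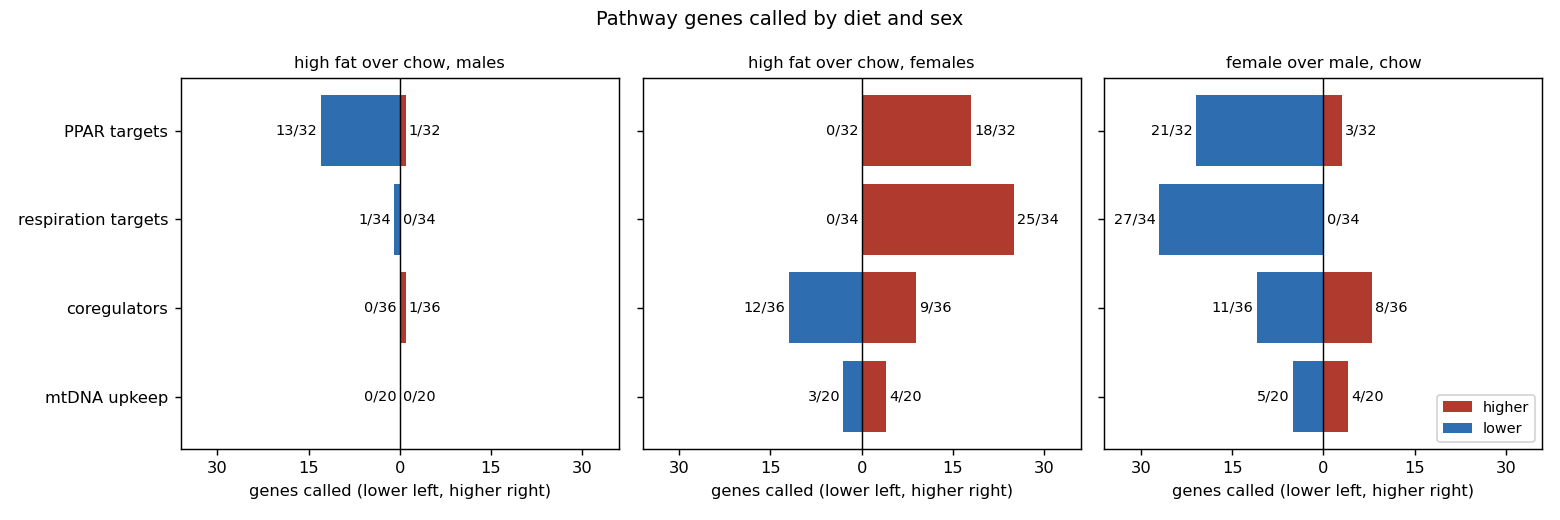
Number of genes called higher (right, red) and lower (left, blue) in each of 4 pathway lists, for diet in males, diet in females and female over male on chow; the numbers beside the bars give the count and the genes tested. Of the PPAR targets 13 of 32 are lower on high fat in males and 18 of 32 higher in females.

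Among 36 coregulators and partners of these factors, diet in males changed 1, the coactivator gene Ncoa1 (0.32 ± 0.09, adjusted p = 0.0302), which is 2.78% of the list beside 7.97% of all genes. In females 9 rose and 12 fell (58.3%, beside 42.5%), among them Fnip1, a folliculin partner in nutrient sensing, at -0.95 ± 0.12 (adjusted p = 5.66e-06), Hif1a of the hypoxia response at -0.60 ± 0.10 (adjusted p = 4.00e-05) and Tfeb, a lysosome regulator, at 0.60 ± 0.10 (adjusted p = 4.11e-05). In knockout against wild type on average 3 were higher and 0 lower (8.33%, beside 4.39%): the corepressor gene Nrip1 at 0.59 ± 0.13 (adjusted p = 0.0120), Foxo1 at 0.41 ± 0.10 (adjusted p = 0.0204) and the orphan receptor gene Nr4a3 at 0.88 ± 0.26 (adjusted p = 0.0488). Without the libraries high in keratinocyte markers 1 was higher and 0 lower, where the number of all genes called was 237, from 615. Of 20 genes for transcription and upkeep of mitochondrial DNA, where Tfam acts, 0 changed with diet in males or with MuRF1 loss on average. In females 4 rose and 3 fell on high fat, 35.0% of the list and so below the 42.5% of all genes, including the mitochondrial RNA polymerase gene Polrmt at 0.45 ± 0.09 (adjusted p = 0.000377), the protease gene Lonp1 at 0.34 ± 0.07 (adjusted p = 0.000498) and Gabpa, a partner factor of respiratory genes, at -0.37 ± 0.08 (adjusted p = 0.000659).

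The genes whose log2 CPM followed each regulator most closely over the 30 libraries were taken from 11261 genes. The libraries share groups, sex and diet, so these values describe the pattern over them. Ppara went with Ank2 (Pearson r = 0.91), Tmed8 (0.90) and Ptprm (0.89), Esrra with Tmem259 (0.92), Tmem63b (0.91) and Map3k10 (0.90), and Ppargc1a with Lifr (0.87), Cep170 (0.86) and Jmy (0.85). Pparg went with Ywhab (0.88), Prkar2b (0.84) and Lgals12 (0.84), and Ppard with Insyn1 (0.81), Scrib (0.80) and Sf3a2 (0.75). Tfam went with the ATP synthase gene Atp5c1 (0.88), Mrps30 of the mitochondrial ribosome (0.87) and Tatdn1 (0.87), Esrrg with Lpgat1, Qk and Acsl1 (each 0.80), and Esrrb with the myosin gene Myh2 (0.83), Klhl34 (0.81) and Coq8a (0.80). For Ppargc1b and Nrf1 the closest genes reached 0.70 (Map3k5) and 0.65 (Tnfaip1). Among the 10 regulators themselves, the pairs farthest from 0 were Esrra with Ppard (0.69), Ppara with Pparg (0.55) and Esrra with Pparg (-0.75).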

How the data were processed

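The deposited values are whole-number counts of reads per gene for each library, which the authors made with bcl2fastq and featureCounts against build mm10, per the submitters' processing notes. Which aligner, gene annotation and strand setting were used is not given in the sources used here. RNA came from powdered frozen whole muscle, and libraries were stranded and selected for poly(A), per the labels' protocols.

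Libraries were grouped by the animal number of the data file, looked up in the titles; 1 library, of an animal in no title, entered no comparison. Genes passing the expression filter of edgeR 4.0.16 (minimum count 10) were scaled by TMM and fitted over the 30 libraries with 1 coefficient per group by the quasi-likelihood test. The 18 contrasts were adjusted over all genes tested (Benjamini-Hochberg, threshold 0.05), and ± after a log2 change is a standard error. Diet changes are high fat over chow, genotype changes knockout over wild type, and sex differences female over male. Fits were tested on simulated data. The 16 alternatives, DESeq2 1.42.0 among them and 1 chosen after seeing the data (without libraries under 0.6 times the median mitochondrial share), and the 30 fits leaving out 1 library are reported in the closing section. The 10 genes and the gene lists were chosen with earlier results of these data known. Genes were named in the text if among the 10, or as the 3 of smallest p in a list and contrast, or as the 3 most correlated with a regulator. Adipoq, Lep and the genes that check the labels are exceptions. At this depth 3 counts correspond to 0.201 to 0.321 CPM. Coordinates and exon lengths are of the GENCODE annotation of GRCm38.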

Additional observations from a re-analysis of the deposited data

Results flagged for a closer look

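The diet effect differed between females and males for 4 of the 10 regulators, by -0.89 for Ppargc1a, -2.60 for Ppara, -1.05 for Pparg and 0.53 for Esrra on the log2 scale (female minus male, edgeR interaction contrast). Single libraries stood apart from the other 3 of their group in 5 of 60 groups of 4 examined, where chance gives about 1 in 20. Esrra was 95.4 CPM in 1 wild-type male on chow (others 76.2 to 79.4) and 76.4 CPM in 1 wild-type male on high fat (others 92.3 to 93.8). Nrf1 was 10.2 CPM in 1 wild-type male on high fat (others 11.5 to 11.7). Tfam was 62.0 CPM in 1 knockout male on chow (others 55.6 to 56.7) and 57.1 CPM in 1 wild-type male on high fat (others 49.7 to 50.8).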

How the results depend on the processing

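Of the 29 calls for single regulators, 1204 of 1313 alternative values kept direction and side of the threshold, 109 missed the threshold and 0 reversed. These values pool the 16 alternatives with the 30 fits leaving out 1 library. For a comparison of 2 groups most of those 30 fits leave out a library of neither group, so their values could change little. Of 6867 alternative values for the 151 results without a call, 122 passed the threshold. The cause of a change between settings was not tested. The number of regulators called became 1 for genotype in chow males with DESeq2, the replicate block, the GC correction, both together and without the 2 libraries low in mitochondrial reads. It became 2 for average diet with DESeq2 and the matrix covariate and 1 with the replicate block. It was also 1 with the library of the unnamed animal added to knockout males on high fat, the group that the title of its record gives. For diet in knockout males it was 0 unfiltered, without libraries high in keratinocyte markers and with either covariate, and 1 with the replicate block, with only the 2 groups fitted and with the GC correction plus block. For diet in wild-type females it was 0 with libraries grouped by their own titles, a grouping that by Trim63 and Ddx3y mixes sexes and genotypes. It was 2 there with the GC correction, either covariate or without the libraries low in mitochondrial reads. For diet in knockout females it was 0 without libraries high in keratinocyte markers, 1 without those low in mitochondrial reads, and 3 with the replicate block or only the 2 groups fitted (Esrrg added), with the GC correction alone or plus block (Ppargc1b) and with the slow fibre covariate (Esrra). For diet in males it was 1 with RLE scaling, unfiltered, with the replicate block, with the library of the unnamed animal, without libraries high in keratinocyte markers, with the GC correction plus block and with the slow fibre covariate, 0 with the matrix covariate, and 3 with the GC correction or without libraries low in mitochondrial reads (Tfam added, at -0.22 and -0.18). The sex average gave 2 with the slow fibre and 0 with the matrix covariate, sex on chow 0 and the difference in diet effect 1 with the matrix covariate. Leaving out 1 library gave 0 to 1 for genotype in chow males, 0 to 2 for average diet and diet in knockout males, 1 to 4 for wild-type females, 1 to 2 for knockout females and for males, 4 to 6 for females and the sex average, 5 to 6 for sex on chow, 2 to 3 for sex on high fat, 4 to 5 for the difference in diet effect, and 0 to 0 for the rest. Deviations of same-numbered libraries correlated from -0.32 to 0.46 (median 0.03), with 33 of 99 pairs over 0.1. Those of different numbers correlated from -0.37 to 0.50 (median -0.01), with 61 of 294 pairs over 0.1. Of 30 libraries 13 correlated best with their own number, and whether the numbers pair the libraries was not tested. With the replicate block the genes called for average genotype went from 615 to 997. Counts over all genes moved too, from 6715 to 436 for sex on chow, 1118 to 182 for diet in males (1904 without libraries low in mitochondrial reads) and 6340 to 2702 for the difference in diet effect with the matrix covariate, from 3558 to 5 for diet in wild-type females grouped by titles, from 2688 for knockout females to 106 without libraries high in keratinocyte markers and 495 without those low in mitochondrial reads, and from 615 to 71 for average genotype with the matrix covariate.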

Other observations

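The library of the animal that no title names held 37.4 CPM of Ppargc1a, 8.29 of Ppargc1b, 8.69 of Ppara, 27.4 of Ppard, 2.86 of Pparg, 86.8 of Esrra, 8.49 of Esrrb, 25.1 of Esrrg, 13.0 of Nrf1 and 52.4 of Tfam. Its Trim63 level was 107.11 CPM, against 0.47 to 6.24 CPM in the 14 knockout libraries. The alternative fit that added it placed it with knockout males on high fat, so that fit holds a library in this group without the knockout's low Trim63.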
